A study of Mus musculus with 73 samples.

Results

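Tuft cells are rare chemosensory cells of the intestinal epithelium. They depend on the transcription factor Pou2f3, they carry a taste-like signalling cascade that ends in the cation channel Trpm5, and they are known for making leukotrienes and prostaglandins and for alerting type 2 immunity. The 9 tuft cell genes described here were Dclk1, Trpm5, Sh2d6, Rgs13, Alox5ap, Bmx, Ltc4s, Ptgs1 and Pou2f3, out of 17399 genes in the epithelial UMI table (a UMI, or unique molecular identifier, marks 1 captured RNA molecule). They were listed because, with the exception of Ltc4s, their counts were lower after toxin treatment in these same samples, so their values in that contrast are given as a description with no test. All 9 were found in the table, of which 7 exceeded the limit on low counts used for fitting (above 10 CPM, that is counts scaled to a common library total, in at least 2 samples) and 2, Ptgs1 and Pou2f3, did not.

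The study asked what Lgr5+ telocytes, stromal cells at the tip of the villus, do for the epithelium around them. Epithelium was detached with EDTA from the jejunum of 8 Lgr5(GFP-ires-DTR/+) mice aged 4 months, 48 h after they received diphtheria toxin (DT, 4 mice) or saline vehicle (mock, 4 mice), and was sequenced in bulk. Mice of both groups carried the receptor allele, and the toxin acts on every Lgr5-expressing cell, which includes crypt stem cells as well as telocytes. The other data came from untreated C57BL/6 mice aged 3 months: single cells sorted through several surface-marker gates, and stroma captured by laser from 4 zones between crypt and villus tip.

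Samples held 748458 to 4210158 UMIs, so that 1 UMI stood for 0.228 to 1.49 CPM. Each group had 2 mice in batch a (replicates 1 and 2) and 2 in batch b (replicates 3 and 4), and what the batches stand for was not given in the sources used here. Lgr5 itself stood at 45.0, 77.3, 10.7 and 24.5 CPM in the mock mice and at 47.3, 33.0, 6.30 and 12.6 CPM in the DT mice, with an adjusted p of 0.258 (edgeR), so the groups overlapped and the treatment could not be read from Lgr5 in the epithelium. In bulk epithelium, fewer cells of a type and less RNA per cell cannot be told apart.

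Promoter sequence is shown for Ltc4s, whose level was not lower in the DT mice, beside 3 of the genes whose level was lowest relative to mock, so that their proximal regions can be compared. RefSeq promoters (mouse build GRCm38.p6, 250 bases before to 50 after each start) were matched for 7 of the 9 genes, with 2 starts for Dclk1 (all but Alox5ap and Pou2f3). The stretches are 100 bases each, written 5′ to 3′ on the strand of the gene, and capitals mark a CCAAT motif. Ltc4s lies on chromosome 11 (50236461 to 50238616, minus strand), Dclk1 on chromosome 3 (55242364 to 55539068, plus), Sh2d6 on chromosome 6 (72513641 to 72521707, minus) and Rgs13 on chromosome 1 (144138654 to 144177372, minus), all protein-coding genes in GENCODE. The Ltc4s stretch lies just upstream of the GENCODE gene and some way before the RefSeq start at 50238532. Each of the others ends 1 base before a RefSeq start. That of Sh2d6 lies inside the GENCODE gene, which on the minus strand begins at 72521707, so its stretch is not upstream of that gene.
Ltc4s, chr11:50238617-50238716, minus: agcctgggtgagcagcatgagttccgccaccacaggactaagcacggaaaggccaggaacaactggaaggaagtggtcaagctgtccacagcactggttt
Dclk1, chr3:55242264-55242363, plus: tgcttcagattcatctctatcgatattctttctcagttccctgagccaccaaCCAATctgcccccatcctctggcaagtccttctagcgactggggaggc
Sh2d6, chr6:72520037-72520136, minus: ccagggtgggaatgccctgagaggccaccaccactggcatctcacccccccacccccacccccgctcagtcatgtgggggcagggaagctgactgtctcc
Rgs13, chr1:144177373-144177472, minus: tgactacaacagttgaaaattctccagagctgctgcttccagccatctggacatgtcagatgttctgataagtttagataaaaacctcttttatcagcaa

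The 8 promoters were searched on both strands for 4 motifs. The octamer ATGCAAAT, the sequence bound by POU-domain factors as a class, was in none of the 8 and in 1.74% of all 32851 promoters of the same length. TATAAA and the GC box GGGCGG were also in none of the 8, against 13.6% and 35.7% of all promoters. CCAAT was in 2 of the 8 (the upstream Dclk1 start, 48 bases before it, and Sh2d6, 31 bases after its start) against 37.4% of all. These are matches of letters in a window and say nothing about binding. The GC content of the 250 upstream bases was 57.6% for Ltc4s, 59.2% for Sh2d6, 52.4% for the upstream Dclk1 start and 36.0% for Rgs13, with a median of 52.4% over all promoters. Ltc4s lay within the range of the other genes.

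In the epithelium, 8 of the 9 tuft cell genes were lower in every DT mouse than in every mock mouse, at 11.3% to 28.4% of the mock mean, and Ltc4s was not, at 112% of it. Over all genes tested, 1.87% (168 of 8986) showed the same separation of the groups, and over all genes with a UMI 1.72% (267 of 15502). The members were chosen for this contrast, and nothing is read from the comparison with that background.

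Pou2f3 was close to the limit of detection. Its UMIs numbered 5, 2, 7 and 18 in mock 1 to 4 and 0, 0, 6 and 1 in DT 1 to 4, which is 3.63, 2.97, 1.60 and 4.90 CPM against 0, 0, 1.58 and 0.421 CPM. DT 3 (1.58 CPM) and mock 3 (1.60 CPM) were almost level, so the separation of the groups rests on a small number of molecules. Pou2f3, the transcription factor on which tuft cells depend, had 39 UMIs in all and was reported as too sparse for a fold change.

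Trpm5, the cation channel at the end of the taste cascade, had 16, 10, 31 and 47 UMIs in the mock mice and 5, 2, 4 and 5 in the DT mice. In CPM it read 11.6, 14.9, 7.07 and 12.8 against 4.22, 0.984, 1.05 and 2.10, and no DT mouse reached the lowest mock mouse. The mean was 11.6 ± 3.30 CPM in mock and 2.09 ± 1.51 CPM in DT (SD, n = 4 each), a log2 fold change of -2.61 (95% interval -3.59 to -1.63).

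Dclk1, a kinase with a doublecortin domain and the usual histological marker of tuft cells, read 18.9, 13.4, 15.3 and 31.6 CPM in the mock mice (26, 9, 67 and 116 UMIs) and 3.38, 4.43, 1.05 and 1.26 CPM in the DT mice (4, 9, 4 and 3 UMIs). Mock 4 was the highest, and the DT mice of batch b lay below those of batch a. The log2 fold change was -3.21 (-4.22 to -2.19), and the batch means went from 16.1 to 3.90 CPM in batch a and from 23.4 to 1.16 CPM in batch b.

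Rgs13, a regulator of G-protein signalling, read 18.2, 7.43, 22.8 and 22.9 CPM in the mock mice and 0.844, 4.43, 2.36 and 0.421 CPM in the DT mice. DT 2 was the highest treated mouse and mock 2 the lowest control, and they still did not meet. The mean was 17.8 ± 7.26 CPM in mock and 2.01 ± 1.81 CPM in DT (log2 fold change -3.15, interval -4.20 to -2.09).

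Sh2d6, an adaptor with an SH2 domain, read 13.1, 8.92, 7.29 and 11.7 CPM in the mock mice and 1.69, 0.984, 0.263 and 1.68 CPM in the DT mice. The lowest DT value, in DT 3, was a single UMI. Bmx, a tyrosine kinase of the Tec family, read 13.8, 13.4, 4.33 and 7.90 CPM against 2.53, 1.48, 0.525 and 0.841 CPM. Both genes were separated between the groups, with log2 fold changes of -3.31 (-4.38 to -2.23) for Sh2d6 and -2.96 (-3.94 to -1.98) for Bmx. Bmx differed between batches in both groups, with mock means of 13.6 CPM in batch a and 6.11 CPM in batch b.

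The genes of eicosanoid synthesis did not move together. Alox5ap, the protein that presents arachidonic acid to 5-lipoxygenase at the start of leukotriene synthesis, read 10.9, 4.46, 9.35 and 12.8 CPM in the mock mice and 0, 2.95, 0.788 and 1.26 CPM in the DT mice (log2 fold change -2.92, interval -4.09 to -1.75). Ptgs1, the cyclooxygenase COX-1 at the start of prostaglandin synthesis, read 16.7, 8.92, 7.29 and 8.44 CPM against 6.75, 1.48, 1.84 and 1.68 CPM. DT 1, with 8 Ptgs1 UMIs, lay close to the lowest mock mouse, and the remaining 3 DT mice had 3 to 7 UMIs. Ptgs1 was above 10 CPM in a single mouse, so it was not fitted, and its DT mean of 2.94 ± 2.55 CPM was 28.4% of the mock mean of 10.3 ± 4.29 CPM (SD, n = 4).

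Ltc4s, which joins glutathione to leukotriene A4 to give leukotriene C4, read 21.8, 20.8, 11.4 and 24.8 CPM in the mock mice (30, 14, 50 and 91 UMIs) and 27.8, 29.5, 18.6 and 12.2 CPM in the DT mice (33, 60, 71 and 29 UMIs). The groups overlapped, with the lowest mouse in mock and the highest in DT. The mean was 19.7 ± 5.78 CPM in mock and 22.0 ± 8.12 CPM in DT, a log2 fold change of 0.08 with an interval of -0.53 to 0.69. Within batch a, Ltc4s went from 21.3 to 28.7 CPM, and within batch b from 18.1 to 15.4 CPM, so its direction differed between batches while each of the 8 other genes was lower in both.

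**Figure D1:**
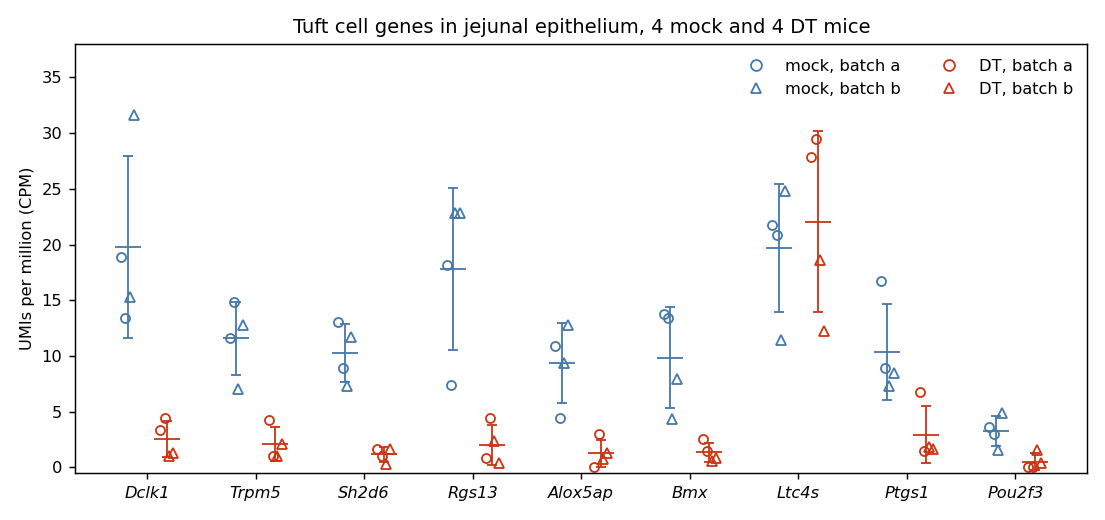
CPM of the 9 tuft cell genes in each epithelial sample, for 4 mock and 4 DT mice, with the group mean and SD and the batch shown by the marker. The DT mice lie below all mock mice for every gene apart from Ltc4s, for which the groups overlap (means 19.7 and 22.0 CPM).

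The contrast between Ltc4s and the rest can also be expressed within each library, where the total depth cancels. The 9 genes together had 177, 64, 379 and 506 UMIs in mock 1 to 4 and 56, 94, 107 and 52 UMIs in DT 1 to 4. Ltc4s made up 16.9%, 21.9%, 13.2% and 17.98% of these in the mock mice and 58.9%, 63.8%, 66.4% and 55.8% in the DT mice. The genes were listed, and Ltc4s set apart, on these same libraries, so the difference in share follows from the choice of genes and is given as a description. Summed over the 8 genes without Ltc4s, the level was 92.3 ± 20.5 CPM in mock (74.3 to 113) and 13.8 ± 5.03 CPM in DT (9.45 to 19.4), which is 15.0% of mock.

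**Figure D2:**
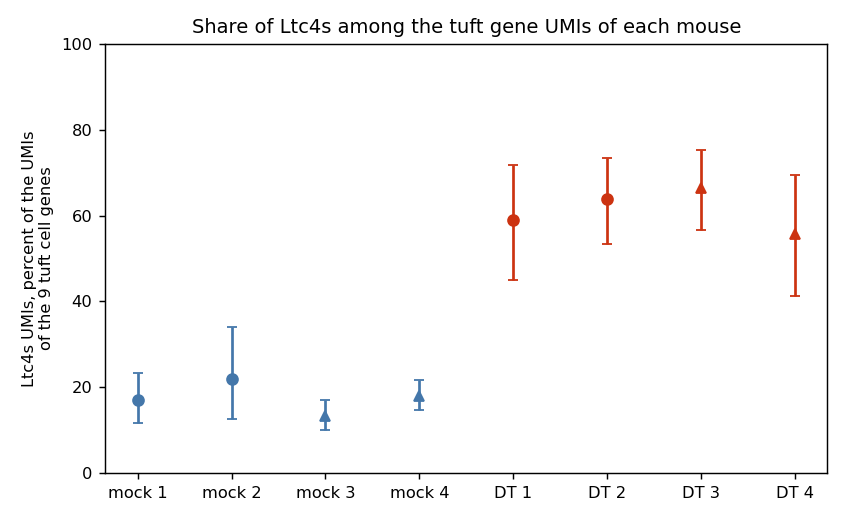
Share of the UMIs of the 9 tuft cell genes that belonged to Ltc4s, in percent, for each of the 4 mock and 4 DT mice, with exact 95% binomial intervals, which cover counting error only, as bars. The mock mice lie between 13.2% and 21.9% and the DT mice between 55.8% and 66.4%.

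The profiles over the 8 mice were compared as the root mean square difference from the mean profile of the 8 genes without Ltc4s, in log2 CPM with each batch mean removed. The 8 genes make up that mean and were chosen on these samples, so their own distances are not given. Among genes that were not on the list and had at least 10 CPM in the mock mice, the 10 with the most similar profile were Ada, Matk, Kctd12, Slc5a4a, Clca4a, Hspa12a, Mtmr11, Pmp22, Dnase1 and Vav1, at 0.408 to 0.593. Of these 10, 3 (Matk, Kctd12 and Vav1) were in the lists of other tuft genes. The genes of the mean profile and those lists were chosen with results of these data known, so nothing is read from that number. Ada, adenosine deaminase, was far more abundant than any tuft cell gene listed and went from 607 to 147 CPM, that is to 24.3% of mock. Clca4a went from 373 to 93.0 CPM and Pmp22 from 200 to 40.9 CPM. In the single cells described further on, Ada and Clca4a were among the leading genes of 2 epithelial-like clusters.

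Another 42 genes known from tuft cells, grouped by role, were present in the table. Of these, 17 were above the limit on low counts, and 2 of the 17 were lower in DT and none higher at an adjusted p under 0.05 (edgeR quasi-likelihood, Benjamini-Hochberg over all genes). The background was 0.334% of 8986 genes lower and 0.0223% higher, 0.356% in either direction. The median log2 fold change over the 17 was -0.59 against 0.004 over all genes tested, and 15 of the 17 were negative. The groups did not overlap, with DT below mock, for 12 of the 42, against 1.72% of all genes with a UMI. The lists were chosen with earlier results of these data known, so nothing is read from these comparisons with the background.

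Matk, a cytoplasmic tyrosine kinase, fell from 12.7 ± 2.65 to 3.12 ± 1.52 CPM (log2 fold change -2.09, edgeR adjusted p = 0.0341). Kctd12, an auxiliary subunit of GABA-B receptors, fell from 20.04 ± 5.47 to 6.56 ± 2.48 CPM (log2 fold change -1.76, edgeR adjusted p = 0.0341). Both genes exceeded the limit on low counts in mock mice only (in DT at most 5.06 CPM for Matk and 8.44 CPM for Kctd12). They thus entered the test through the group in which they were high, and the calls are given as a description. Both calls depended on the model and on single mice. Neither was made without the batch term, within batch a or b alone, with the replicate number as a block, or without mock 1, mock 3, mock 4, DT 2, DT 3 or DT 4, and Matk was also lost without mock 2.

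By role, the taste cascade had 3 of 10 genes tested (Plcg2, Itpr2 and Itpr3), none of them past the threshold and all negative. The 4 tuft regulators Gfi1b, Spib, Hmx2 and Hmx3 were all too low to test. The cytokine and receptor list had 2 of 4 genes tested (Il13ra1 and Il4ra), neither past the threshold, and the tuft cytokine Il25 had no UMI. The surface and cytoskeleton list had 1 of 3 tested genes lower (Kctd12), with Cd24a at a log2 fold change of -0.76 (edgeR adjusted p = 0.185) and Tuba1a at 0.35. The kinase and adaptor list had 1 of 9 tested genes lower (Matk). Of its other members, Vav1 had a log2 fold change of -1.38 (edgeR adjusted p = 0.0907), Lrmp one of -1.10 (edgeR adjusted p = 0.190) and Fyb one of 0.05.

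The 25 genes below the limit, summed, gave 80.9 ± 13.0 CPM in mock (66.9 to 95.1) and 27.0 ± 6.65 CPM in DT (21.8 to 36.3). The ranges did not overlap, and the DT mean was 33.4% of mock. All 23 of them that had a UMI had a lower mean in DT. The share of all genes below the limit with a lower mean was not counted. These genes are from the lists chosen with earlier results of these data known, so nothing is read from the count or the sums. Sucnr1, the succinate receptor of tuft cells, had 1, 1, 5 and 3 UMIs in mock and none in DT. Avil, an actin-binding protein of the tuft, had 9, 3, 32 and 30 UMIs in mock and 4, 2, 3 and 3 in DT, and Sh2d7 had 13, 4, 22 and 21 against 1, 6, 0 and 0. Each of these genes is too sparse for a statement of its own.

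**Figure D3:**
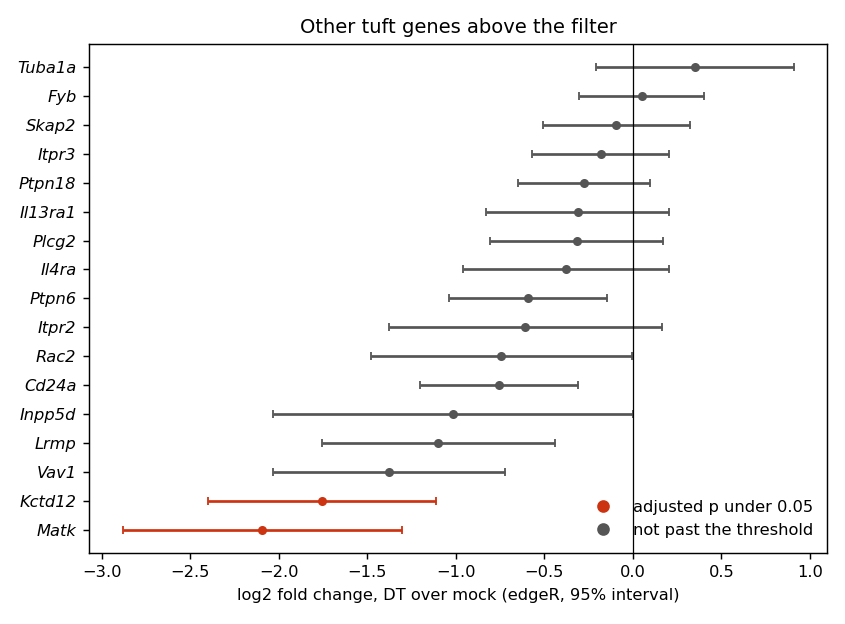
Log2 fold change, DT against mock, with its 95% interval for the 17 other tuft genes above the limit on low counts. Matk and Kctd12, which exceeded that limit in mock mice only, passed an adjusted p of 0.05 (edgeR). Of the 17 values, 15 are negative, and the median is -0.59.

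The eicosanoid list, which excludes the 3 listed tuft genes of that pathway, had 9 of 20 genes tested and none past the threshold. Their median log2 fold change was 0.30, with 4 of the 9 negative. Alox5, the lipoxygenase that works with Alox5ap, was below the limit, with a mean of 3.42 CPM in mock and no UMI in DT. Hpgds, a prostaglandin D synthase of tuft cells, went from 5.11 to 2.90 CPM, also below the limit. The glutathione transferases Mgst1 (247 to 421 CPM, edgeR adjusted p = 0.232) and Mgst2 (186 to 233 CPM), relatives of Ltc4s, had higher means in DT, and Lta4h, which turns leukotriene A4 into leukotriene B4, stood at 264 and 259 CPM.

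Ltc4s, Alox5ap and Ptgs1 are also expressed by immune cells, so marker lists of other cell types were read in the same libraries. The mast cell list summed to 7.43 to 18.2 CPM in mock and 9.25 to 15.2 CPM in DT, with Cma1, Ms4a2 and Gata2 at 0 and 1 of 11 genes tested and not called. The macrophage list summed to 53.0 to 151 CPM in mock and 43.3 to 78.5 CPM in DT (0 of 2 tested genes called), and the lymphocyte list to 309 to 1406 CPM and 164 to 795 CPM (0 of 8 called, 7 negative). The eosinophil list was at 0 in all DT mice and at most 0.726 CPM in mock. The part of these cells in the values of the tuft genes was not tested.

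Of the other epithelial lists, Paneth cell genes summed to 1012 to 3136 CPM in mock and 323 to 745 CPM in DT, with 1 of 4 tested genes lower (Itln1, an intelectin, edgeR adjusted p = 0.0341). The Itln1 call was not made with the replicate number as a block (edgeR adjusted p = 0.0624), with no batch term (0.2996), in batch a (0.566) or batch b (0.415) alone, or without any 1 of the mock mice or DT 2, 3 or 4 (0.0569 to 0.127). Enteroendocrine genes summed to 644 to 1056 CPM in mock and 399 to 767 CPM in DT, goblet genes to 5722 to 10920 CPM and 4295 to 6283 CPM, with no gene called among the 7 tested in each. The log2 fold change was negative for all 7 enteroendocrine and for 6 of the 7 goblet genes. Gip was the closest to the threshold in these 2 lists (log2 fold change -1.13, edgeR adjusted p = 0.0506). Stem cell genes summed to 115 to 220 CPM in mock and 168 to 231 CPM in DT, again with none of 5 called. The ranges of the Paneth sum were separated between the groups, and those of the enteroendocrine, goblet and stem cell lists overlapped. Within the Paneth list, Itln1 alone was separated, and it had the highest mock mean of the list. Lyz1, Mmp7 and Ang4 each overlapped between the groups. The 8 tuft genes were chosen for being lower in DT, so their separation is not compared with that of the Paneth sum.

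The single cells were sorted from untreated mice into plates and counted as UMIs by MARSseq. Of 12346 wells on plates that could be tied to a sample, 2347 had 400 to 8000 UMIs and at least 250 genes, from 8 mice and 11 gates, with a median of 1359 UMIs per cell. The 384 well barcodes were all used on more than 1 plate, so a cell is identified by its plate and well together. Clustering gave 21 clusters, of which 14 (1667 cells) were epithelial-like, 4 (335 cells) mesenchymal-like and 2 (200 cells) immune-like by markers, and 1 (145 cells) stayed unnamed, since its leading genes (Fabp4, Plvap, Podxl and mitochondrial genes) did not match the 5 epithelial markers detected in it. Tuft markers were not used to name clusters, so a tuft cluster was not looked for. None of the 9 genes passed the limits on mean level and dispersion by which genes entered the clustering. Doublets were not searched for by software, and 683 cells came from gates whose labels name doublets.

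Any of the 9 genes was detected in 4.43% of the cells. Ltc4s was seen in the most cells, 37 (1.58%, 51 UMIs), followed by Dclk1 in 31 (67 UMIs), Ptgs1 in 29 (37 UMIs) and Trpm5 in 15 (19 UMIs). Alox5ap was in 6 cells, Sh2d6 and Rgs13 in 5 each, Bmx in 3 and Pou2f3 in 2. The number of cells and the number of molecules did not rank the genes alike. Sh2d6 and Rgs13 had 44 and 41 UMIs in 5 cells each, that is, high counts in rare cells.

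Dclk1 and Ptgs1 were mostly found outside the epithelium. Dclk1 was in 26 of 335 mesenchymal-like cells (7.76%, exact 95% interval 5.13% to 11.2%) and in 5 of 1667 epithelial-like cells (0.2999%). Ptgs1 was in 27 of 335 mesenchymal-like cells (8.06%, 5.38% to 11.5%) and in 2 epithelial-like cells. The median depth was 1020 UMIs in the mesenchymal-like and 1559 in the epithelial-like cells, so depth did not favour the former. With every cell thinned to 400 UMIs, the expected shares were 3.62% and 0.172% for Dclk1 and 2.82% and 0.0319% for Ptgs1. The cells with either gene came from few animals, 18 of the 31 Dclk1 cells and 15 of the 29 Ptgs1 cells from mouse G. Dclk1 was most frequent in cluster 8 (21 of 138 cells, leading genes Gsn, Inmt and Fstl1), and Ptgs1 in cluster 15 (11 of 69 cells, leading genes Ednrb, Adamdec1 and Acta2).

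A group of 4 cells carried at least 3 of 9 tuft markers that do not include the 9 listed genes (Lrmp, Avil, Gng13, Fyb, Matk, Plcb2, Gnat3, Sh2d7 and Gfi1b). The limit of 3 was chosen after values were seen, and the cells are described without a test. Fyb was not particular to such cells. It was detected in 112 epithelial-like, 35 immune-like, 8 mesenchymal-like and 4 unnamed cells. The cell from mouse H (633 UMIs) had Lrmp, Avil and Fyb, so it reached the limit only through Fyb. It held 1 UMI each of Sh2d6, Bmx and Ltc4s. All 4 had UMIs of at least 2 of the 8 genes without Ltc4s. They came from 4 mice, 4 gates and 3 epithelial-like clusters and had 633 to 4231 UMIs. Of all UMIs of each gene in the 2347 cells, these 4 cells held 100% for Bmx, 82.9% for Rgs13, 81.8% for Sh2d6, 57.1% for Alox5ap, 50% for Pou2f3, 31.6% for Trpm5, 29.9% for Dclk1 and 10.8% for Ptgs1. The clearest example, from mouse A, had 4231 UMIs, 7 of the 9 markers and all 9 genes, with 28 UMIs of Sh2d6, 14 of Rgs13, 7 of Dclk1, 5 of Alox5ap, 3 each of Bmx, Ltc4s and Ptgs1, 2 of Trpm5 and 1 of Pou2f3. A second, from mouse E, had 19 UMIs of Rgs13, 13 of Dclk1 and 3 of Trpm5, and none of Ltc4s.

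Just below the limit, 6 cells had exactly 2 of the markers. Of these, 4 were immune-like and had none of the 8 genes, and the other 2 had at least 2 of the 8. One of these, from mouse A and epithelial-like, had 6 UMIs of Rgs13, 4 of Dclk1 and 1 each of Alox5ap and Ltc4s. The other, from mouse G and in the unnamed cluster, had 8 of Sh2d6 and 1 of Trpm5. Its markers were Lrmp and Avil, without Fyb. These 2 cells thus fell outside the group by a narrow margin. They hold most of the UMIs of Sh2d6 and Rgs13 that the 4 cells do not.

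Ltc4s was present in 3 of the 4 cells at 1 to 3 UMIs, and these held 9.80% of its UMIs, a share like that of Ptgs1. It stood at 529 CPM in the 4 cells together and at 11.7 CPM in the 1663 other epithelial-like cells, where 30 cells (1.80%, exact 95% interval 1.22% to 2.57%) held 41 of its 51 UMIs. In those same 1663 cells, Trpm5 stood at 3.42 CPM, Rgs13 at 1.99, Dclk1 at 1.71 and Alox5ap at 0.285, and Sh2d6, Bmx, Ptgs1 and Pou2f3 had no UMI. The level of Ltc4s was higher in the cells with tuft markers, while most of its molecules lay in other epithelial-like cells.

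**Figure D4:**
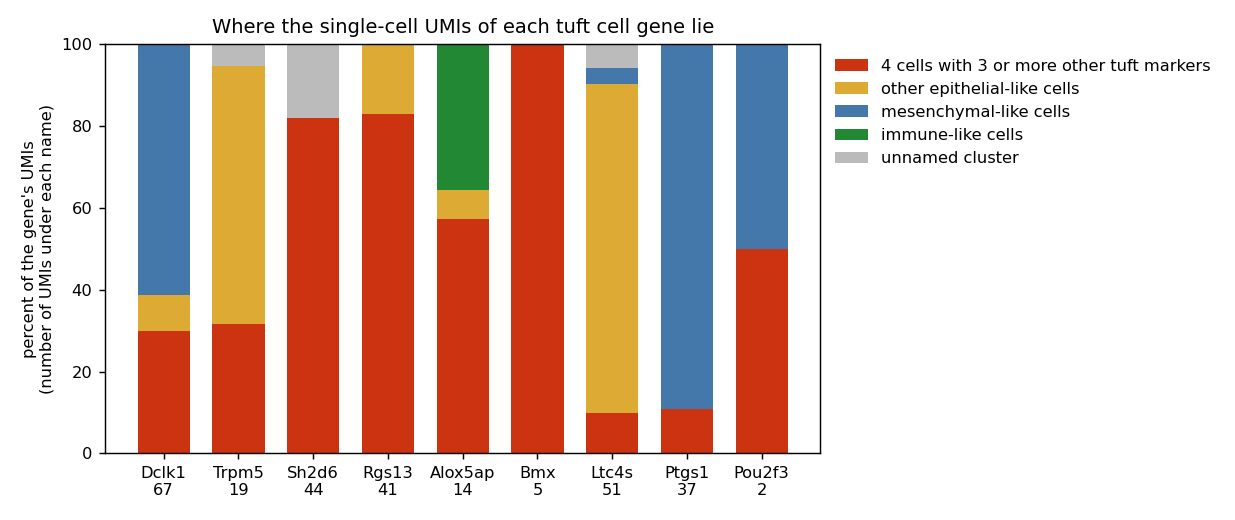
Where the single-cell UMIs of each tuft cell gene lie, as percent of the gene's UMIs in the 2347 cells, with the number of UMIs under each name and colours for the 4 cells with at least 3 other tuft markers and for the remaining cells by class. The 4 cells hold all UMIs of Bmx, 81.8% of those of Sh2d6 and 9.80% of those of Ltc4s, most of which lie in other epithelial-like cells.

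Of the 37 Ltc4s cells, 33 had none of the other 8 genes, and 29 of the 33 were epithelial-like. These cells were deep, with a median of 3604 UMIs against 1544 in the other epithelial-like cells, and Ltc4s cells were found in 7 of 8 mice and 8 of 11 gates. Outside the 4 cells, Ltc4s was spread over 9 of the 14 epithelial-like clusters, the most frequent being cluster 9 (9 of 126 cells, 7.14%, leading genes Fabp2 and Pdzk1), which was also a deep cluster with a median of 4128 UMIs. With every cell thinned to 400 UMIs, the expected share was 0.487% in epithelial-like and 0.0979% in mesenchymal-like cells. None of the 200 immune-like cells had a UMI of Ltc4s, which allows a share of up to 1.5% of cells with a UMI (3 counts of the total). At their median depth of 666.5 UMIs this does not limit the share of cells that express the gene. As RNA released from other cells adds UMIs, a single UMI in a cell was not read as expression.

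Trpm5 and Alox5ap also had cells apart from the 4. Of the 12 remaining Trpm5 cells, 9 were in clusters 6 and 12 (6 of 149 and 3 of 97 cells), the epithelial-like clusters whose leading genes include Ada and Clca4a. All 12 were from 2 mice. Of the 4 remaining Alox5ap cells, 3 were in the immune-like cluster 16 (3 of 48 cells) and from 1 mouse.

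In the laser-captured stroma, the question was whether the genes differ between zones, in data that were not used to choose them. There were 29 sections from 5 mice (3 mice for the crypt, 5 for villus bottom, center and tip), given as TPM (transcript levels per length on a common total), which were rescaled, after removing 378 genes that were high in enterocytes, to ppm of the remaining sum. Of the 9 genes, 6 were above the limit of 5 ppm, and Rgs13, Bmx and Pou2f3 were not. Most values were low and scattered, with Rgs13 at 0 in 20 of 29 sections, Sh2d6 in 19, Bmx in 18, Pou2f3 in 17 and Ltc4s and Alox5ap in 16 each. TPM keeps no depth, so a listed 0 cannot be given an upper limit.

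None of the 6 genes differed between villus tip and crypt at an adjusted p under 0.05 (limma over 13535 genes), where the background was 0% as well, with 441 of the 13535 genes at an unadjusted p under 0.05. In simulated data this comparison recovered 23 of 200 genes with a log2 change of 3, so a missing call does not show equal levels. Ptgs1 was the most evenly detected, above 0 in all but 2 of the 29 sections. Its mouse means were 14.8, 14.4 and 7.17 ppm in the crypt and 1.06, 6.71, 2.15, 20.7 and 7.08 ppm at the tip, and the ranges overlapped. The difference was -1.03 on the log2(ppm + 1) scale (95% interval -3.02 to 0.95, two-sided exact permutation p = 0.286, with 0.0179 the smallest p possible). The mice with crypt sections also gave tip sections, and both the main limma fit and the permutation treated the mouse means as independent. In a limma fit with the mouse as a block, none of the listed genes was called either. Ltc4s read 28.0, 0 and 0 ppm in the crypt and 16.0, 0, 0, 0 and 21.9 ppm at the tip, a difference of 0.10 with a wide interval of -3.14 to 3.34 (exact permutation p = 1).

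Dclk1 showed a difference of 2.94 (0.18 to 5.71, exact permutation p = 0.179, limma adjusted p = 0.991) and was 1.68 without mouse 2. A single tip section of mouse 2 stood at 1521 ppm, 92.7% of the sum of ppm over all 29 sections, and the other tip section of the same mouse was at 0. The mouse means at the tip were 0.214, 761, 5.95, 23.5 and 8.98 ppm against 0.520, 1.60 and 1.91 ppm in the crypt, so that the tip mice apart from the first lay above the crypt mice. Sh2d6 likewise had its highest section, 409 ppm, at the tip of mouse 1, and was at 0 in most others. Of the other 42 tuft genes, 28 were tested between tip and crypt and none was called, with a median difference of -0.35 against 0.04 over all genes.

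**Figure D5:**
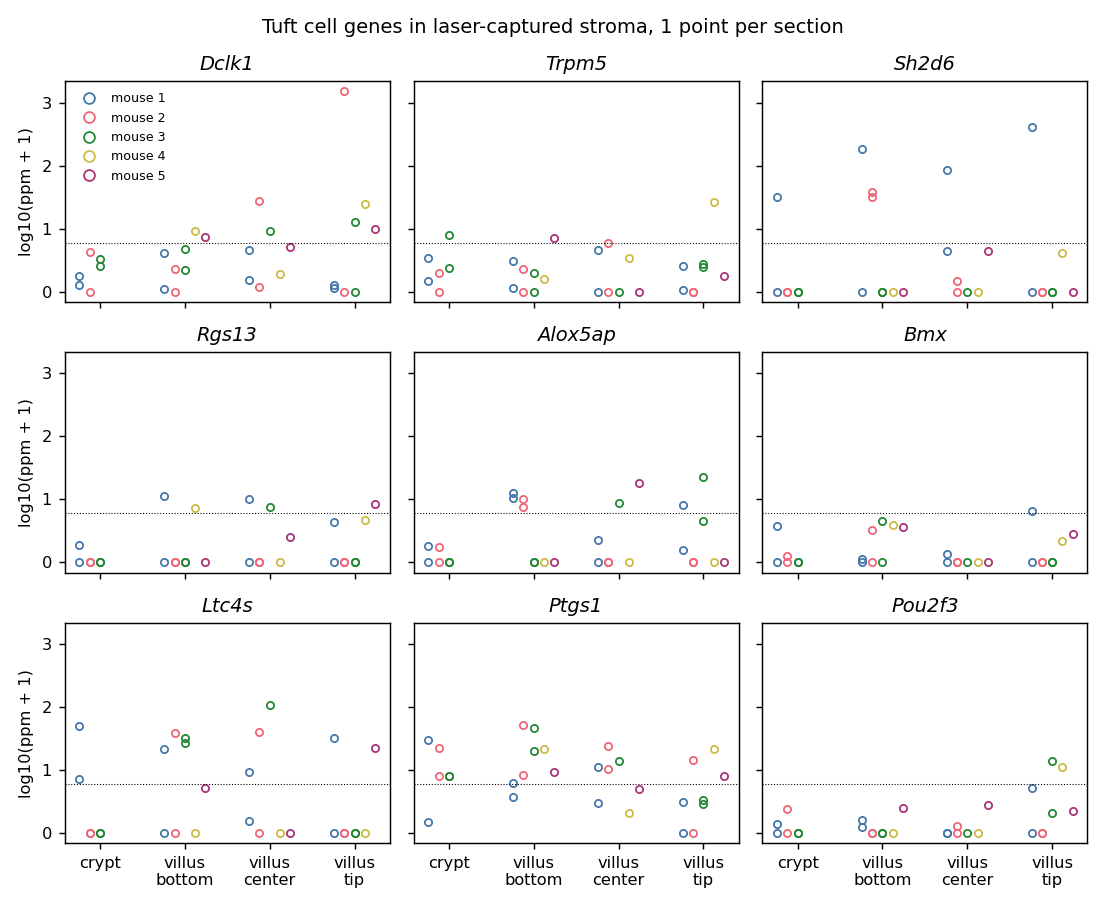
Level in ppm, on a log10(ppm + 1) axis, of the 9 tuft cell genes in each of 29 laser-captured stromal sections, by zone from crypt to villus tip, with 1 colour per mouse and the limit of 5 ppm as a dotted line. Ptgs1 is above 0 in all but 2 sections, and single tip sections carry the highest values of Dclk1 (1521 ppm) and Sh2d6 (409 ppm).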

How the data were processed

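Bulk epithelium was sequenced by mcSCRBseq, single cells by MARSseq and laser-captured stroma by SMARTseq. The authors demultiplexed reads with bcl2fastq, and the epithelial reads were aligned to mouse build GRCm38 and counted with zUMIs. They deposited raw UMI counts per gene for the epithelium and the single cells, and TPM values for the stroma. One count is 1 captured molecule near the 3′ end and does not depend on gene length, whereas TPM is per length and keeps no depth. 352 single-cell columns of 1 plate could not be tied to a sample and were not used. The authors' subtraction of empty wells was not repeated here.

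Counts were fitted in edgeR 4.0.16 (R 4.3.3) with TMM scaling, a batch term, robust quasi-likelihood dispersion and the limit of 10 CPM in 2 samples. Benjamini-Hochberg adjustment ran over all 8986 genes. The pipeline was tested on simulated data, where a log2 change of 2 was recovered in 197 of 200 genes, with 9 false calls. Stroma was averaged per mouse and zone and tested as log2(ppm + 1) with limma 3.58.1. An exact permutation test over the mouse means was added for the listed genes above the limit. Neither took into account that zones came from the same mice. In the simulation, limma recovered 23 of 200 genes with a log2 change of 3, and the permutation test was not simulated. Cells were clustered with Seurat 5.3.0 (11 components, resolution 2, total UMIs and mitochondrial share regressed out). A cluster was named when at least 3 markers of a class were each detected in at least 10% of its cells, except 1 cluster that met this but was left unnamed because of its leading genes. Alternatives included DESeq2 1.42.0, other limits on low counts, single batches and the omission of each mouse. The genes named were the 9 listed, those of the gene lists where a list's result is given, and the 10 outside genes closest in profile. One gene of the tuft lists and markers is not reported here, and counts over those lists leave it out. The 9 genes and the lists were chosen with earlier results of these data known. Replicate numbers were checked as pairs: same-numbered mock and DT mice deviated together (correlations 0.413 to 0.656), and with batch means removed they did not (-0.159 to -0.0606). The labels state no pairing, and the fit with the replicate number as a block is given beside the results it changes.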

Additional observations from a re-analysis of the deposited data

Results flagged for a closer look

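Of 45 groups of 4 or 5 samples examined, 10 held 1 value far from the others. The limit used is passed by about 1 in 20 groups of normally distributed values. Many stromal values were at or near 0, so that rate does not apply to them and the number flagged is not compared with it. In the DT mice, Ptgs1 stood at 6.75 CPM in DT 1 against 1.48 to 1.84 CPM in the other mice. The remaining 9 were mouse means in the stroma, each set against the other mice of its zone. Dclk1 at the tip was 760.6 ppm in mouse 2 (others 0.214 to 23.5 ppm). Trpm5 was 6.01 ppm at the villus bottom of mouse 5 (others 0.479 to 1.08 ppm) and 25.9 ppm at the tip of mouse 4 (others 0 to 1.61 ppm). Sh2d6 in mouse 1 was 43.4 ppm at the center (others 0 to 3.43 ppm) and 204.3 ppm at the tip (others 0 to 3.15 ppm). Bmx was 0.191 ppm at the center of mouse 1 and at 0 in the others. Ltc4s was 109.4 ppm at the center of mouse 3 (others 0 to 19.7 ppm). Pou2f3 in mouse 5 was 1.51 ppm at the villus bottom (others 0 to 0.435 ppm) and 1.82 ppm at the center (others 0 to 0.155 ppm).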

How the results depend on the processing

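In the epithelium, DT against mock, the log2 fold changes of the listed genes kept their sign in each alternative in which they could be fitted. The exception was Ltc4s, which ranged from -0.21 to 0.44. The numbers of genes called (30 lower, 2 higher, 2 other tuft genes lower) moved with the model. They were 333, 302 and 16 with no limit on low counts, 1, 0 and 0 with no batch term, 0, 0 and 0 in batch a alone, and 5, 0 and 0 in batch b alone. DESeq2 called 114 lower and 45 higher. With the replicate number as a block, the counts were 3, 0 and 0. Leaving out 1 mouse at a time gave 3 to 38 genes lower (3 without mock 1), 0 to 6 higher and 0 to 2 tuft genes lower (0 without mock 1, 3 or 4 or DT 2, 3 or 4). The median log2 fold change of the members without Ltc4s was -3.05 over 6 genes. In batch b alone it was -4.08, over the 2 genes still fitted (Dclk1 and Rgs13), and in batch a alone -2.47 over 3, so batch and genes changed together. It ranged from -3.43 to -2.76 with 1 mouse left out, over 3 to 6 genes. With no limit on low values, the stroma gave 2 genes lower at the tip, neither a member. Over the alternatives, the difference between tip and crypt ranged from -0.28 to 0.68 for Trpm5 and from -0.60 to 1.13 for Ltc4s. Those of Dclk1, Sh2d6, Alox5ap and Ptgs1 kept their sign. The share of single cells with any of the 9 genes was 3.33% under looser limits (at least 200 UMIs and 100 genes) and 1.70% with cells thinned to 400 UMIs. At clustering resolution 1, 97.3% of Ltc4s cells and 77.2% of all cells were epithelial-like, against 89.2% and 71.0%, where 1 cluster with epithelial markers was left unnamed, which was not done at resolution 1. Pou2f3 and Ptgs1 missed the limit on low counts in the bulk. Ptgs1 had 114 UMIs there, against 108 for Sh2d6 and 86 for Bmx, so these fitted genes were no better covered. Low UMI numbers limit all 9 genes in single cells.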
